A study of Mus musculus with 6 samples.

Results

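The 348 genes described here are the long noncoding RNA (lncRNA) genes that mouse liver expressed in a comparison of hepatocyte Notch1 knockout with control animals. They are the autosomal rows of the gene table that carry the biotype lincRNA (193 genes between other genes) or antisense (155 genes on the strand opposite another gene) and that averaged at least 0.5 FPKM over the 6 libraries. FPKM is fragments per kilobase of gene length, scaled per library. The table holds 54532 genes, of which 12022 reach 0.5 FPKM. The lncRNA genes of the table off the sex and mitochondrial chromosomes number 7695, and of those 5376 were listed at 0 in every library. The members were chosen by their mean level over all 6 libraries, so the levels below describe the choice. The difference between the groups was not itself a criterion. However, 30 members passed through the control mean alone and 17 through the knockout mean alone, and in these a difference was built into the choice.

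lncRNA genes are transcribed, capped and mostly spliced and polyadenylated like messenger RNA genes, but have no long conserved open reading frame. Some act in the nucleus as scaffolds of nuclear bodies, some are mainly the carriers of small nucleolar RNAs or microRNAs that are cut out of their transcripts, and some sit beside a coding gene whose transcription they share. Many are made at low level and in few cell types. In liver the best known is H19, an imprinted gene that is abundant in fetal hepatocytes and shut down after birth. Notch1 is a cell surface receptor whose cut intracellular part joins the DNA-binding protein RBPJ to switch on target genes.

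The knockout group was 3 liver samples of mice labelled as hepatocyte Notch1 knockouts, and the control group was 3 liver samples of mice with the genotype Notch1fl/fl, that is with floxed Notch1 alleles. Each sample gave 1 library and is called a liver below. No mouse was treated. Whole liver was sequenced, so cells other than hepatocytes contributed to every library. Not given in the sources used are the transgene that drives the deletion, the age and sex of the mice, and whether each sample is 1 animal, so p-values measure the spread between these libraries. In bulk tissue, fewer cells of a type and less RNA per cell cannot be told apart.

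The libraries held 15612924, 17511961 and 15807542 reads in genes for the knockouts and 16053926, 16795674 and 16809352 for the controls. Notch1 itself was low, at 0.301, 0.540 and 0.292 FPKM in the knockouts, against 0.618, 0.965 and 0.854 FPKM in the controls (log2 difference of FPKM + 1 -0.40, limma adjusted p = 0.257), and the groups did not overlap. Albumin, the main secreted protein of hepatocytes, averaged 25939 ± 4769 FPKM in the knockouts and 33417 ± 3811 FPKM in the controls (SD, n = 3 each), so the main marker of the labelled tissue was present. Summed over the 7 hepatocyte markers tested, of which 6 had a lower knockout mean, the knockouts had 51032, 50081 and 39840 FPKM and the controls 53956 to 62182 FPKM. Every knockout sum was thus below every control sum, and its part in the lower values of the lncRNA genes was not tested. Knockout 2 differed from knockouts 1 and 3 in other genes. Over 8 acute-phase genes knockouts 1 and 3 had summed FPKM of 9889 and 10364, far above the controls at 2628 to 3372. Knockout 2, at 2108, was nearer to the controls and below them. Over 8 growth-hormone-dependent male liver genes its sum was 461, against 1948 and 1452 in knockouts 1 and 3 and 1684 to 2154 in the controls. Summed markers of mesothelium (8 of 8 tested) were 99.8, 173 and 137 FPKM in the knockouts and 6.40, 15.6 and 62.3 FPKM in the controls. Those of cholangiocytes summed to 26.5 to 36.3 FPKM in the knockouts and 15.97 to 19.3 FPKM in the controls. This second sum is over all 8 markers, of which 5 were tested. Krt19 is in both lists, so the sums are not separate measures. Markers of Kupffer cells summed to 157 to 212 FPKM in the knockouts and 171 to 206 FPKM in the controls, and those of sinusoidal endothelium to 51.6 to 65.9 FPKM in the knockouts and 52.0 to 66.0 FPKM in the controls.

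The promoters of 5 members whose values are given below are shown first, because RBPJ and the liver transcription factors searched for act on promoters. Each runs from 250 bases before to 50 bases after the RefSeq start (GRCm38.p6), 5′ to 3′ on the strand of the gene. Capitals mark a match to 1 of the motifs searched. Gm36041 (window chr10:122386645-122386944, plus strand) and Malat1 (chr19:5802623-5802922, minus strand) held no match. In Snhg18 (chr15:32244613-32244912, minus strand) the capitals are TTCCCA, which reads TGGGAA, the RBPJ core, on the other strand. In 9030616G12Rik (chr10:128970947-128971246, plus strand) and Rab26os (chr17:24528001-24528300, plus strand) they are the TATA box letters TATAAA.
Gm36041: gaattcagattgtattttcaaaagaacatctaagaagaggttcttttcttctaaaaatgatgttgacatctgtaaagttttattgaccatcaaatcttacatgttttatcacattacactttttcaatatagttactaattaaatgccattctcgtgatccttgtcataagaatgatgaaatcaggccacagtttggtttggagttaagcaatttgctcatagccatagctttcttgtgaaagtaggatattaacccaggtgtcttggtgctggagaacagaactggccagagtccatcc
9030616G12Rik: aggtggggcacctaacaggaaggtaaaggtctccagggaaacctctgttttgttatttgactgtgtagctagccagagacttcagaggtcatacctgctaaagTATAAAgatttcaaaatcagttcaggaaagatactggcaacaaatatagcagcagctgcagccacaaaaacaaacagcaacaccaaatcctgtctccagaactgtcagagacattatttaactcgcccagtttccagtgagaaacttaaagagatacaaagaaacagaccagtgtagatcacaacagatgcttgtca
Malat1: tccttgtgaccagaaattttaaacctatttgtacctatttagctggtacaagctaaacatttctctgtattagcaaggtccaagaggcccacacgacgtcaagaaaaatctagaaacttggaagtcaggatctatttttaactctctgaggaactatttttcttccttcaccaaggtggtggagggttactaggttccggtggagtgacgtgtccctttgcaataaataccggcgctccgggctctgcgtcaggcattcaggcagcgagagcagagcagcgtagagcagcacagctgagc
Snhg18: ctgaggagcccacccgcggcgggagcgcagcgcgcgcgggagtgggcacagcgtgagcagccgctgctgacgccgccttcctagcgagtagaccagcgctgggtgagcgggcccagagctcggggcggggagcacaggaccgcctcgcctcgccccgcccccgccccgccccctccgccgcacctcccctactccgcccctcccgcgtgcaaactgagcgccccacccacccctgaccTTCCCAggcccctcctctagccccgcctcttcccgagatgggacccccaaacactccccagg
Rab26os: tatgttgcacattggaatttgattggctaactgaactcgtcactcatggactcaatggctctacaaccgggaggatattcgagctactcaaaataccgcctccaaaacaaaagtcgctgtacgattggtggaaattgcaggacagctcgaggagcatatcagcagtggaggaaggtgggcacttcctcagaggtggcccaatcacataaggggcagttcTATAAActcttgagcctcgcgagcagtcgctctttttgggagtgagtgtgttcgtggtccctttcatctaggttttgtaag

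A RefSeq promoter window was matched by symbol for 192 of the 348 members, and both strands were searched. The RBPJ core TGGGAA occurred in 23.4% of the member windows and in 25.5% of the windows of all 27025 symbols. It lay in 3 of the 8 windows of members higher in the knockouts at an unadjusted p under 0.05 and in 9 of the 32 windows of members lower at that level. The STAT motif TTCNNNGAA was in 7.81% of member windows and 8.47% of all windows, the FOXA motif TGTTTAC in 4.69% and 3.55%, and TATAAA in 12% and 14.2%. The member windows thus held these letters about as often as promoters in general. A match is a run of letters and not a measured binding site. The 4 searches were made on the same windows and their matches may overlap, although each printed window holds at most 1.

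The members were mostly rare RNAs. Their mean level ran up to 153 FPKM with a median of 1.34 FPKM, against a median of 3.93 FPKM for the protein-coding genes tested, and their median gene length was 992.5 bases, against 4151 bases. At least 5 FPKM was reached by 51 members and at least 20 FPKM by 14. A median member was covered by 28.75 reads per library, 140 members had under 20 reads, and 59 had at least 100. All 348 are found in the GENCODE M21 annotation, 338 at the same coordinates, and 311 carry only a provisional Gm, Rik or clone name. Together they made up 0.291%, 0.340% and 0.278% of all FPKM in the knockouts and 0.291%, 0.294% and 0.321% in the controls. Their summed FPKM was 1486, 1350 and 1202 in the knockouts, against 1503, 1469 and 1495 in the controls. By this sum knockouts 2 and 3 lay below every control and knockout 1 within the control range. By share, however, knockout 2 was the highest of the 6 libraries, so its place depended on the scaling. The members' reads, not scaled for depth, were 29974, 38470 and 29528 in the knockouts, against 32898, 33376 and 34532 in the controls.

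In the most abundant members knockouts and controls overlapped. AW112010, an RNA described in mouse immune cells that can also be translated, had 173, 124 and 152 FPKM in the knockouts, against 172, 172 and 124 FPKM in the controls. The groups overlapped, and the log2 difference was -0.057 (SE 0.18, limma adjusted p = 0.925). Gm10076, which RefSeq lists as a pseudogene and whose reads may therefore be shared with a copy elsewhere, had 165, 137 and 38.2 FPKM in the knockouts, against 34.4, 60.5 and 174 FPKM in the controls, with high and low livers in both groups. 1810008I18Rik had 50.2, 65.9 and 34.5 FPKM in the knockouts, against 42.1, 38.8 and 59.8 FPKM in the controls, and Gm48633 had 53.7, 30.5 and 33.1 FPKM in the knockouts, against 62.2, 42.3 and 44.3 FPKM in the controls. Both overlapped between the groups. Gm20319, antisense to the gene of the interleukin-1 receptor accessory protein Il1rap, had 29.7, 27.7 and 25.4 FPKM in the knockouts, against 37.4, 37.3 and 29.4 FPKM in the controls. Its lowest control fell within the knockout range, and the log2 difference was -0.31 (SE 0.13, adjusted p = 0.341). Epb41l4aos had 24.4, 34.0 and 24.9 FPKM in the knockouts and 24.5, 36.0 and 30.1 FPKM in the controls, and 0610005C13Rik, antisense to the branched-chain aminotransferase gene Bcat2, had 26.7, 23.9 and 22.7 FPKM in the knockouts and 31.6, 24.7 and 25.3 FPKM in the controls. In neither did the groups separate.

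No member passed an adjusted p of 0.05 in limma's test on log2(FPKM + 1), where 3 of all 12022 genes, 0.025%, did and, with the livers paired by number, 0 genes did. A limma voom fit of the recovered reads called 0 members and 27 genes in all. The smallest adjusted p over the members was 0.105, and 64 members, 18.4%, had an unadjusted p under 0.05, against 13.9% of all genes tested. These 64 were unevenly split by direction. Lower in the knockouts were 52 members, 14.9%, against 7.06% of all genes, and higher were 12 members, 3.45%, against 6.83% of all genes. Counting only members whose livers did not overlap between the groups, 44 were lower, 12.6% against 10.6% of all genes, and 13 were higher, 3.74% against 9.2%. The knockout mean was the lower one in 235 members, 67.5% against 51.9% of all genes, and the higher one in 113, 32.5% against 48.1%. The median log2 difference was -0.10 over the members and -0.01 over all genes. With 3 against 3 livers an exact permutation test of a single gene cannot go below p = 0.1.

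**Figure D1:**
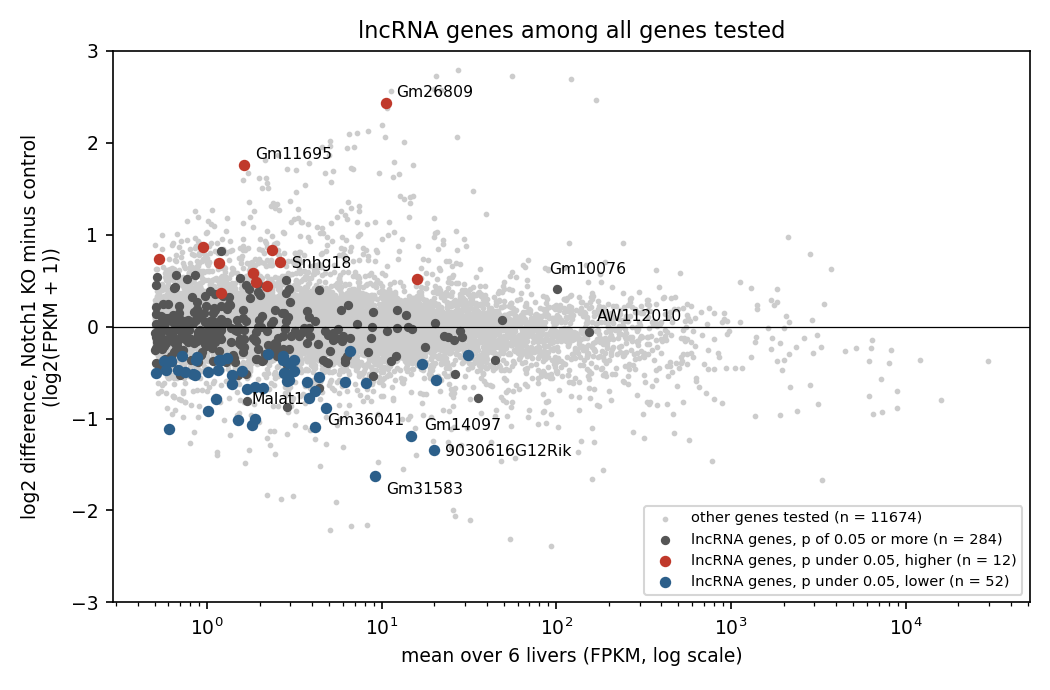
Each point is a gene, with its mean FPKM over the 6 libraries on a log x axis and its log2 difference of FPKM + 1, knockout minus control, on the y axis; lncRNA members are drawn over all other genes tested. Of the 348 members 235 lie below 0, with Gm31583 and 9030616G12Rik among the lowest and Gm26809 the highest; 5 other genes lie outside the plotted range.

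The tilt towards lower values was present in each knockout liver, but not to the same degree. Set against the control mean, 58.9% of the members were lower in knockout 1, 56.9% in knockout 2 and 71% in knockout 3, against 50%, 52.7% and 51.3% of all genes tested. The median log2 difference of the members was -0.09 in knockout 1, -0.07 in knockout 2 and -0.17 in knockout 3. Without knockout 3, 30 members were lower and 14 higher at an unadjusted p under 0.05, 8.62% and 4.02% against 5.28% and 5.57% of all genes. Without knockout 2, 42 were lower and 18 higher, 12.1% and 5.17% against 6.37% and 6.01%. Blocking on replicate number, 62 were lower and 20 higher, 17.8% and 5.75% against 8.18% and 7.94%.

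The split also moved with the scaling. The deposited values are scaled by median-ratio factors, which were highest in knockout 2, at 1.22. Scaling by total reads instead moved the median of all genes by 0.10 log2 units upward. Relative to that shift the members stayed lower, with a median 0.11 log2 units below that of all genes, against 0.10 below it in the deposited scaling. Under total reads 32 members were lower and 20 higher, 9.2% and 5.75% against 3.06% and 11.4% of all genes, and the counts with no overlap between groups were 28 lower and 20 higher, where all genes gave 4.43% and 15.9%.

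**Figure D2:**
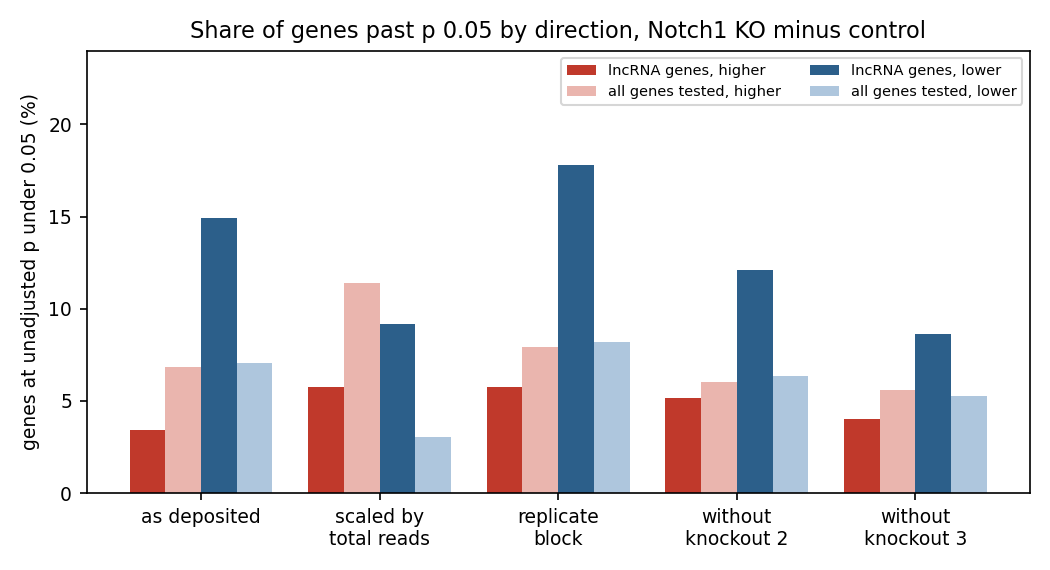
The share of genes with an unadjusted p under 0.05, in percent, is drawn for the lncRNA members and for all 12022 genes tested under each scaling, block or left-out library, separately for higher and lower in the knockouts. In the deposited scaling 14.9% of the members were lower, against 7.06% of all genes, and with total reads 9.2%, against 3.06%.

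By biotype and position the medians were all below 0, beside -0.01 over all genes, of which 7.06% were lower and 6.83% higher at an unadjusted p under 0.05. Among the 193 lincRNA members 29 were lower (15%) and 7 higher (3.63%), with a median log2 difference of -0.07. Among the 155 antisense members 23 were lower (14.8%) and 5 higher (3.23%), with a median of -0.13. Of 150 members that overlap a protein-coding gene on the other strand 22 were lower (14.7%) and 4 higher (2.67%). Of 51 that start within 5000 bases of a coding gene on the other strand 9 were lower (17.6%) and 2 higher (3.92%), and of 145 with no such neighbour 21 were lower (14.5%) and 6 higher (4.14%). Coding genes of like FPKM give a second background, though not one of like read number. Their median length was 5071.5 bases at 0.5 to 1 FPKM and 5077 bases at 1 to 5 FPKM, against 1007 and 981.5 bases in the members. At a mean of 0.5 to 1 FPKM 9.3% of 129 members were lower, against 2.15% of 1488 protein-coding genes. At a mean of 1 to 5 FPKM 18.5% of 168 members were lower, against 4.58% of 4515 protein-coding genes, and at 5 to 20 FPKM 18.9% of 37, against 7.72% of 2838. At 20 FPKM or more the shares were 14.3% of 14 members and 14% of 1794 coding genes. Higher at that level of p were 1.55% of members and 9.34% of coding genes at 0.5 to 1 FPKM, and 4.76% and 7.57% at 1 to 5 FPKM. At 5 to 20 FPKM these were 5.41% and 6.84%. In the 2 lowest ranges the coding genes were thus more often higher than lower, which widens the contrast. Among 190 members with a transcript of 3 or more exons 37 were lower (19.5%) and 5 higher (2.63%), and among 158 with fewer exons 15 were lower (9.49%) and 7 higher (4.43%). These are counts with no test of the differences between them.

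The filter touched some of these counts. In 30 members the knockout mean was under 0.5 FPKM and the control mean was not, and in 17 members the reverse held, so these passed through 1 group. Of the 301 members at 0.5 FPKM or more in both groups 44 were lower and 9 higher at an unadjusted p under 0.05, 14.6% and 2.99%, against 7.05% and 6.15% of the 11483 genes of the table that met the same condition. Just inside the limit were Gm30177, 1110006O24Rik and Gm26881 at means of 0.505, 0.506 and 0.509 FPKM, and just outside were Gm45253, Gm12505 and Gm16062 at 0.482, 0.487 and 0.491 FPKM. Gm12505 had 0.618, 1.45 and 0.773 FPKM in the knockouts, against 0, 0 and 0.0795 FPKM in the controls, while Gm45253 had 0.129, 0.120 and 0.225 FPKM in the knockouts, against 0.770, 0.601 and 1.04 FPKM in the controls. The members' values spread more within a group than those of genes in general, with a median SD of 0.271 log2 units, against 0.156 over all genes tested. A median member had only 28.75 reads per library, and no background of like read number was set beside this. The part of read counting in the larger spread was not tested.

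Among the 12 lower members with the smallest p, Gm36041 came first. It is a lincRNA gene with 6 exons at chr10:122386892-122435033 (GRCm38, plus strand, ENSMUSG00000112774) and carries only a provisional name. It had 2.50, 2.04 and 2.21 FPKM in the knockouts, against 5.61, 7.73 and 4.77 FPKM in the controls. The knockout livers lay close together and below every control. The means were 2.25 ± 0.231 FPKM in the knockouts and 6.04 ± 1.53 FPKM in the controls (SD, n = 3 each), a log2 difference of -1.09 (SE 0.16, limma adjusted p = 0.105). Over the alternatives that p ran between 0.0464 and 0.282, and it passed 0.05 only without control 3.

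Gm14097, antisense to the shieldin gene Shld1, had 9.96, 9.13 and 6.72 FPKM in the knockouts, against 21.1, 16.9 and 24.8 FPKM in the controls. The groups were far apart, at a log2 difference of -1.19 (SE 0.18, adjusted p = 0.105), while Shld1 itself was at -0.36. 9030616G12Rik, a short lincRNA at chr10:128971197-128978115 whose promoter window is printed above, was among the best covered of the lower members. It had 16, 7.90 and 9.26 FPKM in the knockouts, against 27.5, 22.4 and 36.8 FPKM in the controls. The highest knockout stayed below the lowest control, at a log2 difference of -1.34 (SE 0.27, adjusted p = 0.134). B630019A10Rik, listed as antisense, had 6.46, 5.87 and 6.22 FPKM in the knockouts, against 9.77, 12 and 8.55 FPKM in the controls, at a log2 difference of -0.62 (adjusted p = 0.136). The groups did not overlap in it either. Its nearest coding gene, 294 bases away, is St6gal1, a sialyltransferase that liver uses on secreted glycoproteins, and St6gal1 averaged 17.6 FPKM in the knockouts and 13.7 FPKM in the controls.

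9030622O22Rik, also known as Falcor, is a lincRNA that lies next to Foxa2, the gene of a transcription factor that opens liver chromatin. It had 3.02, 2.14 and 2.50 FPKM in the knockouts, against 4.79, 4.6 and 5.90 FPKM in the controls. All knockouts were below all controls, at a log2 difference of -0.78 (SE 0.13, adjusted p = 0.107). Foxa2, 2674 bases away, had 7.31, 6.36 and 4.89 FPKM in the knockouts, against 15.5, 12.9 and 10.2 FPKM in the controls, at a log2 difference of -0.95 (adjusted p = 0.118). Both genes of this pair were thus lower in mean, and neither passed the test. Gm30931 lies 103833 bases from Acsl1, which makes acyl-CoA from long-chain fatty acids. It had 0.901, 1.09 and 0.451 FPKM in the knockouts, against 3.59, 2.52 and 2.28 FPKM in the controls (log2 difference -1.07, adjusted p = 0.107), and Acsl1 had 75.5, 57.1 and 61.0 FPKM in the knockouts, against 167, 111 and 139.8 FPKM in the controls (log2 difference -1.09, adjusted p = 0.107). Again neither the member nor the coding gene overlapped between the groups. 3930402G23Rik, 55985 bases from Irs2, the insulin receptor substrate, had 0.926, 0.826 and 0.863 FPKM in the knockouts, against 1.87, 1.56 and 2.28 FPKM in the controls (log2 difference -0.63, adjusted p = 0.114), and Irs2 averaged 6.02 FPKM in the knockouts and 11.3 FPKM in the controls (log2 difference -0.81, adjusted p = 0.276). These coding genes were looked up after the values of the members were seen, and those named in this paragraph were lower. Other members of the 12 had nearest coding genes with smaller differences or the other sign. Avpr1a, 13466 bases from Gm36041, was at 0.07, and Atp1b1, 4087 bases from Gm32391, was at -0.12. Ptpn9, which Gm10658 overlaps, was at 0.14, and Zfp395, which Gm48449 overlaps, was at 0.22. Mettl7b, 10209 bases from 9030616G12Rik, was at -0.36, and Bace1, which Gm16536 overlaps, was at -0.05. Acsl1 is the second nearest to Gm30931, after Helt at 68580 bases, which was listed at 0 in every library.

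The other lower members of the 12 had fewer reads or smaller differences. Gm15962, antisense to Keg1, a gene of the glycine N-acyltransferase family, had 0.989, 0.454 and 1.40 FPKM in the knockouts, against 2.58, 3.05 and 2.88 FPKM in the controls, at a log2 difference of -1.01. Keg1 was lower as well, at 50.4, 28.0 and 43.4 FPKM in the knockouts, against 66.2, 64.3 and 82.0 FPKM in the controls (log2 difference -0.82, adjusted p = 0.20). The library kit, as labelled, is not stated to mark strand, so an overlapping pair such as this may share reads, which was not tested. Overlap here is of whole gene spans, introns included. Gm48449 was listed at 0 in all knockouts, against 0.603, 1.41 and 1.63 FPKM in the controls, which were only 2, 5 and 6 reads. Set against a floor of 3 reads per library it was at least 1.53-fold lower, although control 1 was itself under that floor. Gm48449 is 1 of the 30 members that passed the filter through the controls alone, so that a difference was built into its choice. Gm32391 had 0.371, 0.647 and 0.650 FPKM in the knockouts and 1.36, 1.73 and 2.01 FPKM in the controls, Gm10658 had 3.10, 2.99 and 2.27 FPKM in the knockouts and 4.91, 4.51 and 4.72 FPKM in the controls, and Gm16536, antisense to the secretase gene Bace1, had 2.02, 1.79 and 2.43 FPKM in the knockouts and 3.15, 3.58 and 4.17 FPKM in the controls. None of these overlapped between the groups, and their adjusted p values lay between 0.107 and 0.144.

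**Figure D3:**
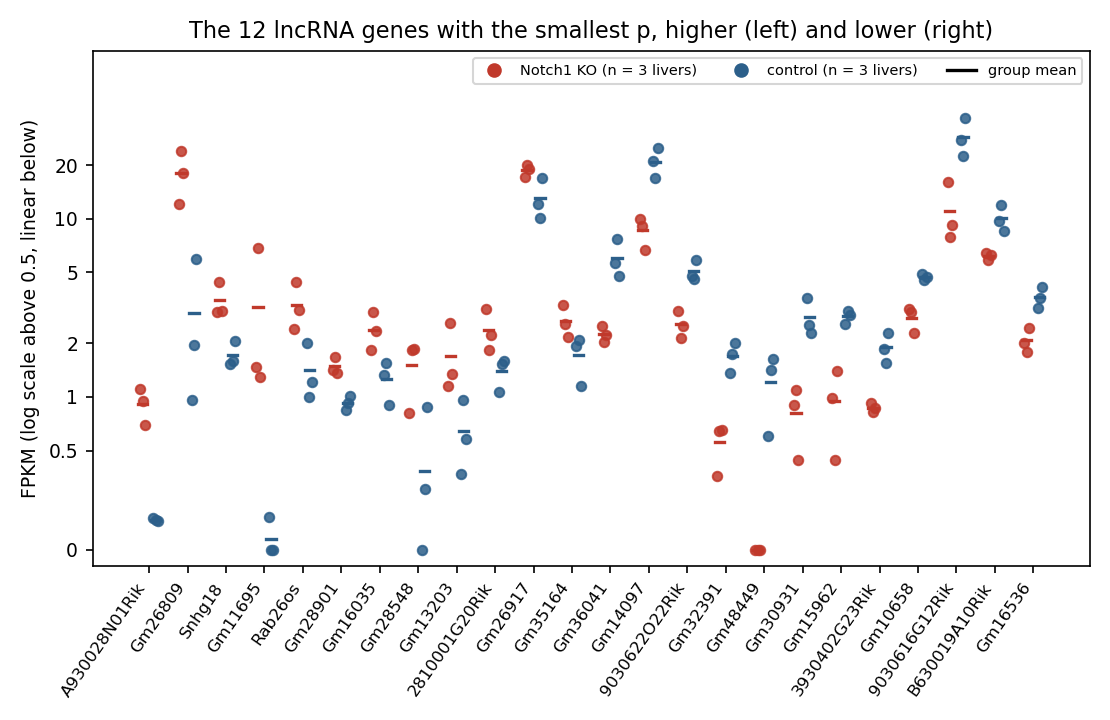
FPKM in each liver, on an axis that is log above 0.5 and linear below, is drawn for the members with the smallest p in each direction, knockout livers left of control livers. In Gm36041 the knockouts sit at 2.04 to 2.50 FPKM and the controls at 4.77 to 7.73 FPKM, and in Gm26809 the knockouts sit at 12.1 to 24 FPKM and the controls at 0.961 to 5.91 FPKM.

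On the higher side Gm26809 had the largest difference of the 348 members on the log2(FPKM + 1) scale, while Gm11695, described below, was ahead of it with a pseudocount of 0.1 and with voom. It is a lincRNA gene with 3 exons at chr6:18844220-18847360 (plus strand), 1219 bases from Lsm8, which encodes a subunit of the ring that holds U6 RNA. It had 12.1, 24 and 18.1 FPKM in the knockouts, against 0.961, 1.97 and 5.91 FPKM in the controls, from 541, 1433 and 924 reads in the knockouts and 43, 94 and 293 reads in the controls. Every knockout was above every control, but the controls spread widely. The means were 18.1 ± 5.92 FPKM in the knockouts and 2.95 ± 2.62 FPKM in the controls (SD, n = 3 each), 6.13-fold apart, with a log2 difference of 2.43 (SE 0.46, limma adjusted p = 0.115). Without control 3 the control mean was 1.47 FPKM, the means were 12.3-fold apart and the adjusted p was 0.0454. Lsm8 differed by 0.18 on the log2 scale (adjusted p = 0.660). The livers took the same order in Gm26809 as in the summed mesothelial markers given above, within the knockouts and within the controls, and the part of mesothelial cells in its difference was not tested. Gm20186, a member that overlaps it on the other strand, was at 0.56.

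Snhg18 and Rab26os both carry a small nucleolar RNA in their gene, Snord123 in Snhg18 and Snord60 in Rab26os, RNAs of the class that guides ribose methylation of ribosomal RNA. Snhg18 had 3.01, 4.40 and 3.03 FPKM in the knockouts, against 1.52, 1.6 and 2.07 FPKM in the controls, at a log2 difference of 0.71 (SE 0.15, adjusted p = 0.144). Rab26os had 2.42, 4.42 and 3.06 FPKM in the knockouts, against 2.01, 1.0 and 1.21 FPKM in the controls, at 0.83 (SE 0.21, adjusted p = 0.183). In both, every knockout was above every control and knockout 2 was the highest. Gm11695, antisense to the monocarboxylate transporter gene Slc16a5, had 1.48, 6.86 and 1.29 FPKM in the knockouts, against 0.164, 0 and 0 FPKM in the controls, from 9, 56 and 9 reads in the knockouts and 1, 0 and 0 reads in the controls. Knockout 2 supplied most of it. Its log2 difference was 1.75 (adjusted p = 0.182), and without knockout 2 it was 1.18 with an adjusted p of 0.0406. With a control mean of 0.0546 FPKM it is 1 of the 17 members that passed the filter through the knockouts alone, so that a difference was built into its choice. Slc16a5 had a log2 difference of 0.60.

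A930028N01Rik had the smallest p on the higher side, but few reads, and it too passed the filter through the knockouts alone. It had 1.11, 0.946 and 0.693 FPKM in the knockouts, against 0.158, 0.148 and 0.143 FPKM in the controls, or 7, 8 and 5 reads in the knockouts and 1, 1 and 1 reads in the controls. Gm26917, which lies next to the ribosomal RNA pseudogene Rn18s-rs5 in RefSeq, was better covered, at 17.2, 20.1 and 19 FPKM in the knockouts, against 12.2, 10.03 and 17 FPKM in the controls (log2 difference 0.52, adjusted p = 0.285). All knockouts lay above all controls in both genes. The other higher members were Gm13203, 2810001G20Rik, Gm16035, Gm35164, Gm28901 and Gm28548, with log2 differences of 0.70, 0.49, 0.58, 0.44, 0.36 and 0.86. Of these 6, Gm28548 overlapped between the groups, and Gm35164 was at 0.27 without control 3. Gm28548 also passed the filter through the knockouts alone, so that a difference was built into its choice.

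Of the nuclear body RNAs, Malat1 had the larger difference. Malat1 is a long RNA of nuclear speckles, where splicing factors gather, and Neat1 is the scaffold of paraspeckles, which hold back edited RNAs and proteins. Malat1 (chr19:5795690-5802672, minus strand) had 1.92, 3.79 and 3.48 FPKM in the knockouts, against 4.44, 6.50 and 8.79 FPKM in the controls. The groups did not overlap, but both spread over a wide range. The means were 3.07 ± 1.0 FPKM in the knockouts and 6.58 ± 2.18 FPKM in the controls (SD, n = 3 each), a log2 difference of -0.89 (SE 0.26, adjusted p = 0.225, 0.101 to 0.43 over the alternatives). Neat1, its neighbour on the chromosome, had 0.592, 2.0 and 0.656 FPKM in the knockouts, against 1.16, 1.36 and 0.956 FPKM in the controls (log2 difference -0.11, adjusted p = 0.884). Only knockout 2 lay above the controls, and the sign turned without knockout 1 or without knockout 3. The mature end of Malat1 carries no poly-A tail of the usual kind, and the libraries were made from poly-T selected RNA.

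Tug1, a widely made and conserved RNA, had 2.09, 1.87 and 1.77 FPKM in the knockouts, against 2.92, 2.48 and 2.31 FPKM in the controls. The groups did not overlap, by a small log2 difference of -0.29 (SE 0.10, adjusted p = 0.287), and Morc2a, which Tug1 overlaps, was at -0.36. The conserved 2900097C17Rik, known as Norad, a cytoplasmic RNA that binds Pumilio proteins, had 15.1, 14.6 and 14.4 FPKM in the knockouts, against 14.4, 14.1 and 16.7 FPKM in the controls. 1700020I14Rik, known as Cyrano, which destroys miR-7, had 9.40, 9.42 and 7.43 FPKM in the knockouts, against 8.07, 10.2 and 8.08 FPKM in the controls. In both, the livers of the groups were mixed, with log2 differences of -0.026 (SE 0.10) and -0.0039 (SE 0.13), whose signs turned under scaling by total reads. Bvht, named for a part in heart development in mouse, was at 0.37 (adjusted p = 0.391) with overlapping groups, and at 0.24 without control 3.

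**Figure D4:**
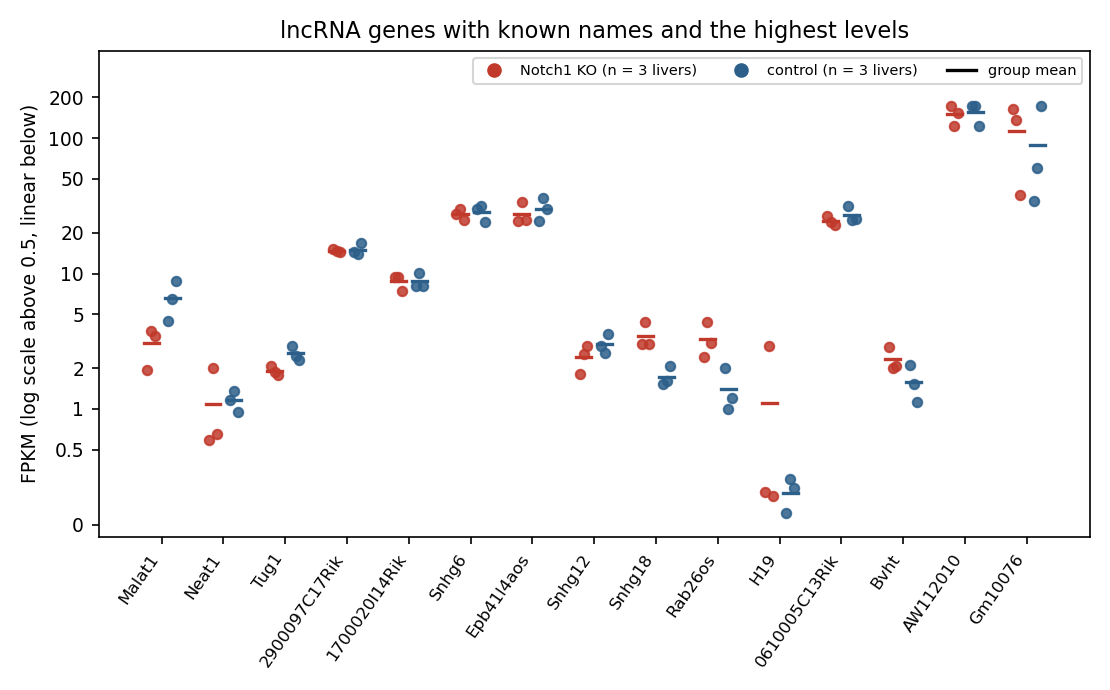
FPKM in each liver, on an axis that is log above 0.5 and linear below, is drawn with knockout livers left of control livers. The genes are members of the lists of known lncRNAs, with AW112010 and Gm10076 added for their high level. Malat1 spans 1.92 to 3.79 FPKM in the knockouts and 4.44 to 8.79 FPKM in the controls, whereas the Norad gene 2900097C17Rik spans 14.4 to 15.1 FPKM in the knockouts and 14.1 to 16.7 FPKM in the controls.

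Of 22 small nucleolar RNA host genes listed, 7 were members, and most of the others carry another biotype in the table. Besides the 2 higher genes above, Snhg6 had 27.5, 30.2 and 24.8 FPKM in the knockouts, against 29.8, 31.7 and 23.9 FPKM in the controls, at a log2 difference of -0.043. Snhg12 had 1.81, 2.55 and 2.90 FPKM in the knockouts, against 2.94, 2.60 and 3.58 FPKM in the controls, at -0.25 (adjusted p = 0.524), and at -0.11 without knockout 1. Snhg20 and Snhg10 were at -0.12 and -0.071, and Epb41l4aos at -0.12. All 5 overlapped between the groups, and the 7 hosts did not share a direction.

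Mature microRNAs lie inside 7 members by their coordinates, and 4 of these microRNAs are shown because their families are well known in liver or in imprinting. Capitals mark the seed, bases 2 to 8, which pairs with targets. The sequences are from RefSeq (GRCm38.p6), and no 2 of the 4 share a seed. The libraries measured polyadenylated host RNA and not the microRNAs.
mmu-miR-675-5p (in H19, chr7:142577112-142577133, minus strand): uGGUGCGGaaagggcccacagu
mmu-miR-675-3p (in H19, chr7:142577078-142577099, minus strand): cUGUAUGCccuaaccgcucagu
mmu-miR-101a-3p (in E130102H24Rik, chr4:101346957-101346977, minus strand): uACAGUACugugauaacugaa
mmu-let-7d-5p (in 6720427I07Rik, chr13:48536078-48536099, minus strand): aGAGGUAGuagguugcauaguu

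H19 had 0.217, 2.92 and 0.190 FPKM in the knockouts, against 0.0813, 0.305 and 0.245 FPKM in the controls. It was high in knockout 2 alone. With every control under 0.5 FPKM, H19 is 1 of the 17 members that passed the filter through the knockouts alone, so that a difference was built into its choice. Without that liver its log2 difference was -0.0031, and with it 0.56 (adjusted p = 0.614). E130102H24Rik, which contains miR-101a, had 0.291, 1.14 and 0.637 FPKM in the knockouts, against 0.799, 1.22 and 1.25 FPKM in the controls. 6720427I07Rik, which contains let-7d, had 0.756, 0.954 and 0.992 FPKM in the knockouts, against 1.65, 1.14 and 0.654 FPKM in the controls. Their log2 differences were -0.33 (adjusted p = 0.512) and -0.15 (adjusted p = 0.762). Of the 14 microRNA host genes listed by name none reached 0.5 FPKM with an lncRNA biotype, and of 9 imprinted lncRNA genes H19 was the only member.

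In the members that varied most between livers of a group, knockouts and controls overlapped. Gm15611, which lies 1078 bases from Crot, a peroxisomal carnitine acyltransferase gene, had 38.7, 8.23 and 39.3 FPKM in the knockouts, against 28.4, 44.3 and 55.4 FPKM in the controls. BC049987, divergent from the trehalase gene Treh, had 6.90, 0.892 and 5.31 FPKM in the knockouts, against 4.40, 3.31 and 2.23 FPKM in the controls. In both, knockout 2 was the lowest liver of all 6. Gm38079 had 2.17, 0.648 and 1.14 FPKM in the knockouts, against 3.03, 0 and 0.391 FPKM in the controls, and Gm10076 is given above. Among the 6 members on the list of liver and metabolic lncRNAs, Gm6135 had 4.85, 13.9 and 11.5 FPKM in the knockouts, against 11.5, 14.9 and 11 FPKM in the controls, and Gm15622, antisense to the methyltransferase gene Bhmt, had 0.594, 1.23 and 1.36 FPKM in the knockouts, against 0.546, 2.73 and 2.26 FPKM in the controls. The groups overlapped in each.

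The coding neighbours of the members are given next, from the same fit, with 1 gene per member, the one with the longest overlap. Of 124 members with a tested protein-coding gene overlapping on the other strand, 76 had the same sign as that gene, with a Pearson r of 0.19 and a Spearman rho of 0.10 over the log2 differences. Of 43 divergent pairs 26 had the same sign, with an r of 0.35 and a rho of 0.37. These are descriptions across gene pairs from the same 6 libraries, and overlapping pairs may share reads. In overlapping pairs the median log2 difference was -0.14 for the members and -0.08 for their neighbours. In divergent pairs these medians were -0.07 and -0.02. With both sides below 0 the same sign is more frequent to begin with, and its share in other gene pairs was not counted. Over all genes tested 51.9% had a lower knockout mean and 7.06% were lower at an unadjusted limma p under 0.05. The counts that follow were not tested against that background. Of the 18 lower members (unadjusted p under 0.05) with a tested overlapping gene, 11 had a partner lower in mean and 4 a partner lower at that level. Those 4 pairs were Gm15962 with Keg1, Gm20319 with Il1rap, Tug1 with Morc2a and D130020L05Rik with Ppp4r3a. Counting every tested coding gene on the other strand, 19 lower members had 1 or more, 13 had one lower in mean and 5 had one lower at that level, the added pair being Gm16548 with the gene of coagulation factor V, F5 (log2 differences -0.58 and -0.42). Of 8 lower divergent members 6 had a partner lower in mean and 2 a partner lower at that level, Gm7160 with Zcchc2 and Gm11337 with Slc17a2, and these pairs were named after their values were seen.

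**Figure D5:**
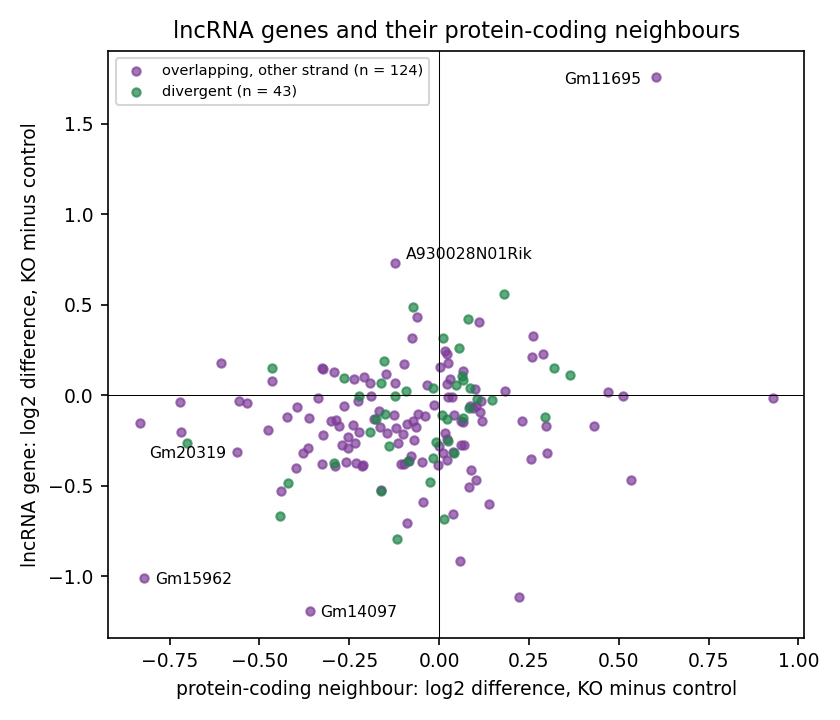
Each point is a member and its protein-coding neighbour, with the neighbour's log2 difference of FPKM + 1, knockout minus control, on the x axis and the member's on the y axis, for 124 overlapping and 43 divergent pairs. The points lie in all 4 quadrants, with an r of 0.19 for overlapping and 0.35 for divergent pairs, and Gm15962 with Keg1 is a pair in which both are low.

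At a greater distance, the lincRNA Gm31583 lies 96231 bases from Bcl6, a transcriptional repressor that shapes sex-dependent and fasting gene programs in liver and 1 of the 3 genes of the whole table past an adjusted p of 0.05 in the deposited scaling without a block. This pair was picked after its values were seen. Gm31583 had 8.14, 1.44 and 3.36 FPKM in the knockouts, against 22.2, 10.1 and 9.93 FPKM in the controls. No liver overlapped, at a log2 difference of -1.62 (SE 0.50, limma adjusted p = 0.244). Bcl6 rose, with 9.64, 8.23 and 8.21 FPKM in the knockouts, against 2.01, 0.941 and 1.33 FPKM in the controls, at a log2 difference of 2.02 (SE 0.17, adjusted p = 0.0252). With the livers paired by number the adjusted p was 0.0549 and 0 genes of the table passed; without knockout 1 it was 0.0665, without knockout 3 it was 0.171, without control 2 it was 0.0904, with a pseudocount of 0.1 it was 0.0874 and with no filter it was 0.124. The member and its nearest coding gene thus differed in opposite directions.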

How the data were processed

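RNA of 6 whole livers was purified on poly-T beads and sequenced, per the labels' protocols. Per the submitters' processing notes HISAT2 2.0.5, featureCounts 1.5.0-p3 and the build GRCm38 were used; of the annotation release and the strand setting the sources used say nothing. The deposited FPKM values, made by the authors, came out as whole reads within 0.1 read for 100% of values when multiplied by gene length. Their divisors follow median-ratio factors (0.911 to 1.22) and not read totals. 3 reads in a gene of 1 kb are 0.150 to 0.201 FPKM. The columns named KO were taken as the knockouts, and those named NC as the controls by elimination.

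Genes averaging at least 0.5 FPKM entered limma 3.58.1 (R 4.3.3; eBayes with a trend) as log2(FPKM + 1), two-sided, knockout minus control, with Benjamini-Hochberg adjustment over 12022 genes. The pseudocount of 1 understates changes of low genes. The test was tried on simulated data. Members and lists were chosen with earlier results of these data known. Named were the members of 7 lists, the 12 with the smallest p in each direction, the 8 highest, the 4 most variable, their neighbours and 3 on each side of the limit. Deviations from the group means of same-numbered livers had correlations of 0.31, 0.16 and 0.10, against -0.25 to 0.11 otherwise. The third pair thus lay within the range of the livers with unlike numbers, and a pairing was not established. The main test used no block, pairing by number was an alternative only, and the labels give no reason for it. Alternatives changed the pseudocount, filter, scaling, block and libraries.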

Additional observations from a re-analysis of the deposited data

How the results depend on the processing

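Of the 47 named members 34 kept their sign in every alternative that gave a value and 13 changed it in at least 1; there were 15 alternatives, or 14 for members averaging under 1 FPKM, which a filter at 1 FPKM removes. The median member difference (-0.10) became -0.17 with a pseudocount of 0.1, -0.012 with total reads, where the median of all genes shifted by 0.10, and -0.25 with limma voom on the recovered reads, an alternative chosen after seeing the data (all genes -0.06). Leaving out 1 library gave a median of -0.14 to -0.086. The 12 members higher at an unadjusted p under 0.05 (3.45%, against 6.83% of all genes) became 20 with total reads (5.75% against 11.4%). They became 20 with the replicate block (5.75% against 7.94%) and 7 with voom (2.01% against 5.69%). The 52 lower (14.9% against 7.06%) became 32 with total reads (9.2% against 3.06%) and 44 with voom (12.6% against 9.77%). The lower shares of members and all genes thus lay closer together with voom than in the main fit. When 1 library was left out, the lowest count of lower members was 30, without knockout 3 (8.62% against 5.28%). The highest was 50, without knockout 1 (14.4% against 7.86%). The count with groups that do not overlap moved to 20 higher and 28 lower with total reads, 5.75% and 8.05% against 15.9% and 4.43% of all genes. The count past an adjusted p of 0.05 was 0 to 2 when 1 library was left out: 1 without knockout 2 (Gm11695) and 2 without control 3 (Gm36041 and Gm26809). The replicate block, which pairs livers of the same number, gave 62 lower (17.8%, against 8.18% of all genes) and 0 past the adjusted p. It changed no call of a named member.

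Signs turned as follows. With quantile normalization AW112010 was at 0.051 and 1700020I14Rik at 0.0038; with total reads Epb41l4aos was at 0.022, Snhg6 at 0.095, AW112010 at 0.085, 2900097C17Rik at 0.11 and 1700020I14Rik at 0.12; with voom BC049987 was at -0.17. Leaving out 1 library gave Gm6135 -0.64 to 0.032, Neat1 -0.40 to 0.051, BC049987 -0.29 to 0.74, H19 -0.0031 to 0.86, AW112010 -0.21 to 0.072, 1810008I18Rik -0.14 to 0.31, Snhg10 -0.35 to 0.22, Snhg6 -0.16 to 0.036, 1700020I14Rik -0.055 to 0.098, Gm10076 -0.11 to 1.06, Gm38079 -0.082 to 0.92, Epb41l4aos -0.27 to 0.015 and 2900097C17Rik -0.0698 to 0.046. With no change of sign, it moved by over 1.5 times Gm35164 0.27 to 0.54, Bvht 0.24 to 0.51, Snhg12 -0.35 to -0.11, Gm48633 -0.61 to -0.19, Gm15611 -1.14 to -0.077, Gm15622 -0.78 to -0.15, 0610005C13Rik -0.21 to -0.034 and Snhg20 -0.23 to -0.05.

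Count models meant for whole reads were planned and not run, because the deposited unit is FPKM; voom stands in for them. Depth limits the 140 members under 20 reads per library, where 1 or 2 reads decide a value, and 3 livers per group limit every p. The part of mesothelial and bile duct cells, of the acute-phase genes and of knockout 2 in the differences was not tested.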

Other observations

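The count of lower means varied between chromosomes, beside 235 of 348 members, 67.5%, on all of them together. Of the 15 members on chromosome 12, 14 had a lower mean in the knockouts (median log2 difference -0.16), and on chromosome 10 it was 21 of 25 (median -0.16). On chromosome 14 it was 6 of 16, with a median of 0.06, and on chromosome 15 it was 6 of 12, with a median of -0.01. Only on chromosomes 14 and 18 was the median above 0. The chromosomes named were picked after the members' values were known, and the counts rest on 4 to 25 members per chromosome. They were not tested against other genes, and the share over all genes of each chromosome was not counted. The counts therefore do not show whether the spread is uneven beyond ordinary scatter.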
